A study of Mus musculus with 34 samples.

Results

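The genes of cholesterol synthesis and of its control by SREBP2 were followed in mouse liver through fibrosis, tumour growth and a retinoid diet. They were chosen by name, with earlier results of these data known. Shares of members called, set beside those of all genes, therefore describe this list and are no test of it. The list held 28 genes, and each was read from the probe sets of the deposited table whose only gene symbol was that gene. Of the 28, 26 had such a probe set, out of 18193 genes with a probe set of 1 symbol in the whole table. All 26 passed the filter on dim probe sets, which left 13099 genes for testing. Acat2 and Soat2 were not analysed here. The brightest probe set stood for a gene, and 17 members had more than 1. The chosen probe sets of Hmgcs1, Fdft1, Lss and Hsd17b7 carry a suffix (x_at or s_at) that marks possible hybridisation to related transcripts. Those 4 genes are therefore less certain than the other 22.

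Liver RNA was hybridised to 34 Affymetrix mouse arrays in 7 groups. The mice were C57/B6 wild type, or carried a Pdgf-c transgene, which encodes platelet-derived growth factor C, a growth factor for fibroblasts and hepatic stellate cells. From weaning at week 4 the transgenic mice ate a basal diet or a diet with 0.06% peretinoin, an acyclic retinoid. Wild-type liver was taken at week 20 (n = 5) and week 48 (n = 4), transgenic liver on the basal diet at week 20 (n = 5) and week 48 (n = 5), and transgenic liver on peretinoin at week 20 (n = 5) and week 48 (n = 5). The seventh group was 5 tumours of transgenic mice at week 48. Below, transgenic liver means the basal diet unless peretinoin is named. The labels give week 20 as the age for fibrosis and week 48 as the age for tumours. The labels name neither the promoter of the transgene nor the hour of sampling. They leave unsaid which arrays stand for separate mice and whether tumours share a mouse with any of the livers. The p-values therefore measure the spread between these samples, which may be technical.

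Cholesterol is built from acetyl-CoA through the mevalonate arm, which ends in farnesyl diphosphate, then through squalene to lanosterol, and then by demethylation, reduction and isomerisation to cholesterol. SREBP2, encoded by Srebf2, is the transcription factor that switches these enzymes on together. It is made as a membrane protein bound to Scap. When sterols are plentiful, Insig1 and Insig2 hold the pair in the endoplasmic reticulum. When sterols are scarce the pair moves to the Golgi, where the proteases encoded by Mbtps1 and Mbtps2 release the active factor. Insig1 is itself an SREBP target, while Insig2 in liver is known for its response to fasting and insulin. Liver is the main organ of whole-body cholesterol balance, and the pathway in it follows feeding and the daily clock.

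The promoters of Insig1 and Sc5d are shown because both genes were called in the same 4 of the 9 comparisons described below, and that of Hmgcs1 because it alone held the SREBP letters searched for. The sequences are from RefSeq on build GRCm38.p6, cover the 250 bases before the annotated start and run 5′ to 3′ on the strand of the gene. Capitals mark matches to TCACNCCAC, the classical SREBP site, to CCAAT, the site of its partner NF-Y, and to CACGTG, an E-box, on either strand.
Hmgcs1, chr13:119690101-119690350, strand +: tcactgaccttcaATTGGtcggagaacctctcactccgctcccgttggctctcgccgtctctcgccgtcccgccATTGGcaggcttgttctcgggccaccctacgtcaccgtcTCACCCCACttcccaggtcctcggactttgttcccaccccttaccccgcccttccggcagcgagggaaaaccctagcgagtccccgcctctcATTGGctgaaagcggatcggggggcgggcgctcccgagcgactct
Insig1, chr5:28071162-28071411, strand +: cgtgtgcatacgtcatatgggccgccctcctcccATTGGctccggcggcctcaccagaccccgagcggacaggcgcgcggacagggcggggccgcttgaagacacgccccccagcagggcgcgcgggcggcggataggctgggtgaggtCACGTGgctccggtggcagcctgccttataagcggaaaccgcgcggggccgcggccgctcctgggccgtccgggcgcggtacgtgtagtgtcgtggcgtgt
Sc5d, chr9:42264301-42264550, strand -: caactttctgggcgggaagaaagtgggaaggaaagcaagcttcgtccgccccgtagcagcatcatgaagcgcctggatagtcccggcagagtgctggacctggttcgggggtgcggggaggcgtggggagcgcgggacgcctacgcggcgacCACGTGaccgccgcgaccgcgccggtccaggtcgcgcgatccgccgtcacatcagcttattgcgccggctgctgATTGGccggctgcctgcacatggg
The table held entries for 23 of the 28 listed genes, 22 of them among the 26 measured, with 29 entries in all. TCACNCCAC stood in 1 of these 29 entries, that of Hmgcs1, 137 to 129 bases before the start, and in 346 of 32851 promoter windows of the same length in the genome (1.05%). CCAAT stood in 19 of the 29 entries, against 33.8% of all windows. CACGTG stood in 5 of the 29 entries, against 6.02% of all windows. Insig1 held it 101 to 96 bases before the start and Sc5d 98 to 93 bases before the start. The other 3 genes with CACGTG were Dhcr7, Hsd17b7 and Scap. None of the matches overlapped another in the 3 printed windows. A match is a run of letters, not a measured binding site.

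The signals are Affymetrix MAS5 intensities on a linear scale. The median signal of an array lay between 71.5 and 95.7, and precision is set by how many arrays a group has. Hepatocyte markers were bright in every group, with a summed signal of 147379 to 244434 over the 34 arrays. Pdgfc, the gene of the transgene, gave 259 to 412 in wild-type liver at week 20 against 210 to 386 with the transgene, and 458 to 519 against 517 to 1219 at week 48, so the genotypes overlapped on its probe set at both ages. The labels do not say whether the transgene carries the stretch this probe set reads. Within a group, the cholesterol genes had a wider spread between arrays than the median gene. The residual SD of log2 signals had a median of 0.54 over the 18 enzymes and 0.44 over the 26 members, against 0.28 over all 13099 genes. Sqle had the widest spread, 1.05, ahead of Idi1 at 0.85 and Fdps at 0.80, while Mbtps1 and Mbtps2 had only 0.11. Replicate 2 of wild-type liver at week 20 stood apart. It was the lowest of its 5 arrays in 17 of the 18 enzymes, all but Ggps1, and in 19 of the 26 members. Its Sqle signal was 115.6, against 1753.5 in the next lowest array of the group. Its Idi1 signal was 532.3 against 5070.7, and its Fdps signal 1210.3 against 6611.7. The correlation of this array with the rest of its group was 0.977, inside the range of 0.938 to 0.987 over the 34 arrays. In transgenic liver at week 20, replicates 4 and 5 were the 2 highest arrays in 16 of the 18 enzymes. Other groups also had such arrays. With peretinoin, replicate 4 was the highest in 16 enzymes at week 20 and in 14 at week 48, and replicate 1 the lowest in 13 at week 20. In transgenic liver at week 48 replicate 5 was the highest in 14 and replicate 2 the lowest in 14. Replicate 2 of the tumours was the lowest in 15. Enzymes thus moved together on single arrays, so counts of enzymes above 0 are not 18 separate observations. For the comparisons that use wild-type liver at week 20, the counts of members called and the medians over the enzymes are given with and without its replicate 2. In 6 arrays the transcripts of skeletal muscle or pancreatic acinar cells were at least 3 log2 units above those of the median array. These were replicate 4 of wild-type liver at week 48, replicate 5 of transgenic liver at week 20, replicate 4 of transgenic liver at week 48, replicates 3 and 5 of peretinoin liver at week 20 and replicate 1 of peretinoin liver at week 48.

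**Figure D1:**
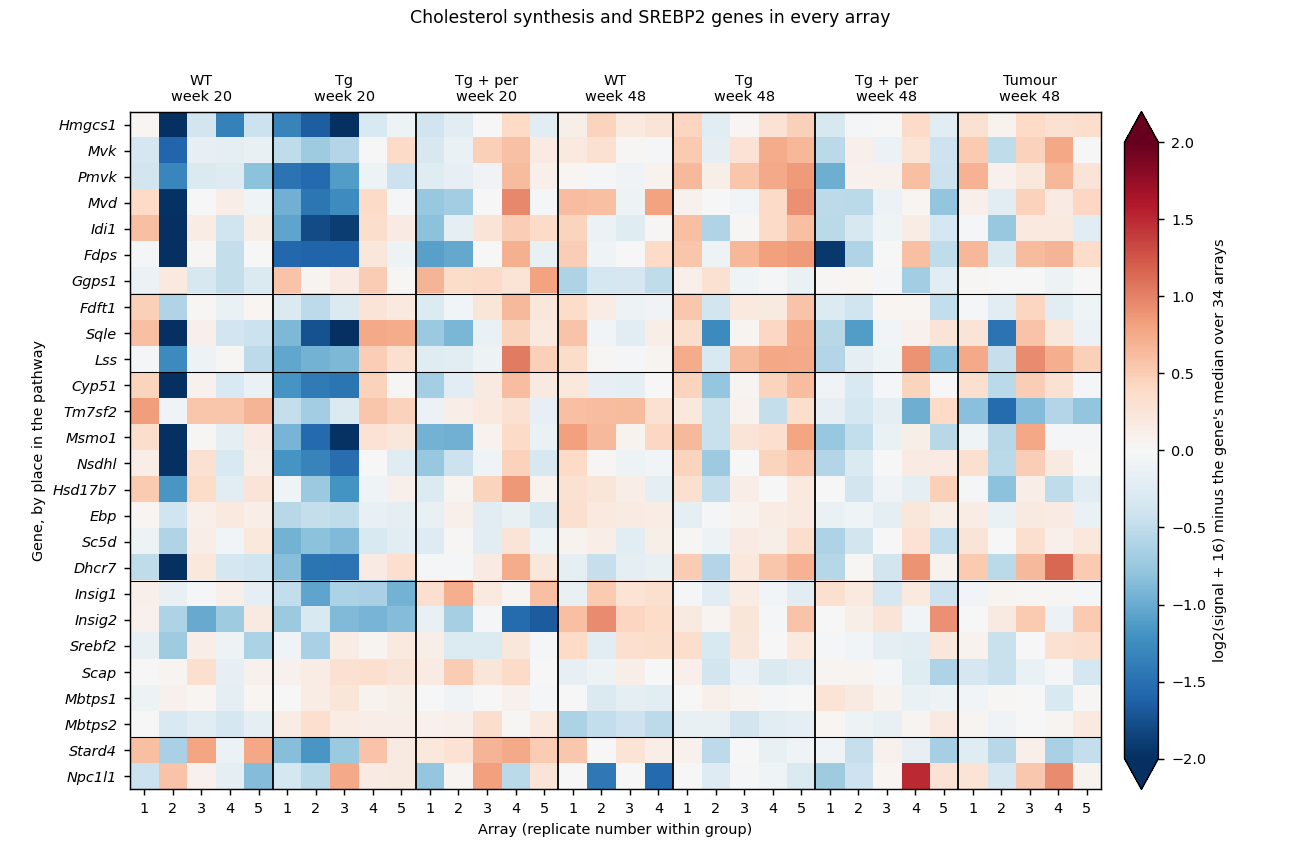
Signals of the 26 measured genes (rows, by role in the pathway) on the 34 arrays (columns, by group); the colour is log2(signal + 16) minus that gene's median over the 34 arrays, in log2 units and clipped at 2 either way. Replicate 2 of wild-type liver at week 20 is the lowest of its group in 17 of the 18 enzymes, and replicates 4 and 5 of transgenic liver at week 20 are the 2 highest of theirs in 16.

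Signals of single arrays follow by role, in the order of the replicate numbers, which carry no ranking. In the mevalonate arm, Hmgcs1 encodes HMG-CoA synthase, which condenses acetyl-CoA with acetoacetyl-CoA. At week 20 Hmgcs1 gave 15853, 3522, 11927.5, 5986 and 11363 in wild-type liver, 6080.2, 4888, 3817, 12474 and 14318 in transgenic liver and 11621, 13217, 15409.9, 20309 and 13116 with peretinoin. Hmgcs1 at week 48 gave 16728, 21017, 17495 and 18451 in wild-type liver, 20641, 13097, 15772, 18718.5 and 21419 in transgenic liver, 12325, 15158, 15306, 20114 and 13138 with peretinoin and 18873.5, 16078, 20307, 18903 and 19623 in tumours. The 4 wild-type arrays of week 48 all lay above the 5 of week 20, while peretinoin and transgenic liver overlapped at both ages. Pmvk, the phosphomevalonate kinase, gave 986, 509, 1049, 1066 and 717 in wild-type liver at week 20, 452, 427, 579, 1193 and 944 in transgenic liver and 1076, 1144, 1219, 2002 and 1371 with peretinoin. Pmvk at week 48 gave 1317, 1242, 1217 and 1341 in wild-type liver, 2004, 1393, 1883, 2172 and 2316 in transgenic liver, 644.5, 1358, 1361, 1940 and 948 with peretinoin and 2088, 1354, 1488, 2046 and 1536 in tumours. All 5 transgenic arrays of week 48 were above all 5 of week 20 and above all 4 wild-type arrays of their own age. Peretinoin arrays at week 48 reached from the lowest of them, replicate 1, to a replicate 4 inside the transgenic range.

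Idi1, which isomerises isopentenyl diphosphate, gave 10162, 532, 7422, 5071 and 7209 in wild-type liver at week 20, 3223, 1919, 1783, 8549.9 and 7482 in transgenic liver and 3786, 5871, 7952, 9429 and 8688 with peretinoin. Idi1 at week 48 gave 9106, 6146.5, 5617 and 6770.2 in wild-type liver, 10104, 4385, 6782, 8759 and 10189 in transgenic liver, 4615, 5354, 6303, 7411 and 5219.8 with peretinoin and 6591, 3964.5, 7612, 7691 and 5779 in tumours. Every pair of groups overlapped, and the low end at week 20 was replicate 2 of wild-type liver. Fdps, the synthase of farnesyl diphosphate at the end of the mevalonate arm, gave 9128.5, 1210.3, 9358, 6612 and 9324.5 in wild-type liver at week 20, 3107, 3036, 3022, 10789 and 8615 in transgenic liver and 4349, 4517, 9179, 15057 and 8326 with peretinoin. Fdps at week 48 gave 12991, 8678, 9287 and 12097 in wild-type liver, 13581, 8626, 14560.1, 16249 and 16636 in transgenic liver, 2417, 6081, 9325, 14059.9 and 6497 with peretinoin and 14564, 7574, 14375.5, 14789 and 11851 in tumours. Among the transgenic arrays of week 20, replicates 1, 2 and 3 were close together and low, replicate 5 was higher and replicate 4 lay inside the range of week 48. Ggps1 makes geranylgeranyl diphosphate, a branch away from sterols that is used to anchor small GTPases. At week 20 Ggps1 gave 354, 445, 306, 273 and 311 in wild-type liver, 581, 402, 434, 551 and 391 in transgenic liver and 625, 499, 506, 469 and 679.7 with peretinoin. Ggps1 at week 48 gave 244, 297, 299.6 and 265 in wild-type liver, 412, 481, 359.7, 376 and 350.3 in transgenic liver, 391.5, 396, 376, 232 and 328 with peretinoin and 391.5, 383, 384, 359 and 385 in tumours. The transgenic and wild-type arrays were apart at week 48, and at week 20 only replicate 2 of wild-type liver reached the transgenic range. The kinase Mvk had group means from 362 ± 121 (SD, n = 5, wild type at week 20) to 659.8 ± 157 (n = 5, transgenic at week 48). The decarboxylase Mvd had group means from 248 ± 150.2 (n = 5, transgenic at week 20) to 513 ± 129 (n = 4, wild type at week 48).

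In the squalene arm, Sqle encodes squalene epoxidase, a rate-controlling step. At week 20 Sqle gave 3603, 116, 2537, 1813 and 1753.5 in wild-type liver, 1264, 696, 569, 3991 and 3959 in transgenic liver and 1403, 1249, 2159, 3227 and 2714 with peretinoin. Sqle at week 48 gave 3523, 2270, 2016 and 2589 in wild-type liver, 3006, 962, 2451, 3137 and 3958 in transgenic liver, 1595, 1081, 2267, 2495.5 and 2813 with peretinoin and 2824, 842, 3511, 2768 and 2168 in tumours. All groups overlapped, and within transgenic liver at week 20 replicates 4 and 5 stood well above the other 3. Fdft1, the squalene synthase, had group means from 4698.5 ± 806 (n = 5, peretinoin at week 48) to 6466 ± 1552 (n = 5, transgenic at week 48). Lss, which closes the ring to lanosterol, ran from 938.5 ± 297 (n = 5, wild type at week 20) to 1755 ± 459 (n = 5, transgenic at week 48).

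After lanosterol, Cyp51 removes the C14 methyl group. At week 20 Cyp51 gave 3708, 616.5, 2909, 2198 and 2474 in wild-type liver, 1195, 1011.5, 979.6, 3744 and 2761 in transgenic liver and 1702, 2348, 3076, 4194 and 3109 with peretinoin. Cyp51 at week 48 gave 3167, 2427, 2376 and 2751 in wild-type liver, 3727, 1592, 2836, 3724 and 4178 in transgenic liver, 2593, 2206, 2665, 3736.5 and 2706 with peretinoin and 3408, 1874, 3834, 3363 and 2671 in tumours. As for Sqle, all groups overlapped. Tm7sf2, a sterol C14 reductase, gave 7594, 4047, 6276, 6273 and 6864 in wild-type liver at week 20, 3047, 2641, 3475.5, 6285 and 5858 in transgenic liver and 3911, 4687, 4905, 5277 and 3824 with peretinoin. Tm7sf2 at week 48 gave 6462, 6574, 6597 and 5287 in wild-type liver, 4917, 3140.4, 4496, 3057 and 5452 in transgenic liver, 3798, 3344, 3762, 2156 and 5617 with peretinoin and 2379, 1455, 2343, 2822 and 2451 in tumours. Each of the 5 tumours lay below each of the 5 transgenic livers of the same age. Nsdhl, a C4 demethylation enzyme, gave 4341, 874, 4921, 3216 and 4348 in wild-type liver at week 20, 1739.9, 1571, 1372, 4001 and 3365 in transgenic liver and 2337, 2952, 3727, 5498 and 3186 with peretinoin. Nsdhl at week 48 gave 5262, 4017.5, 3718 and 3808 in wild-type liver, 5401, 2386.5, 3986, 5386 and 5842 in transgenic liver, 2654, 3256, 3972, 4466 and 4447 with peretinoin and 4963, 2732, 5594, 4515 and 3969 in tumours. Its groups overlapped at each age, and replicate 2 of wild-type liver at week 20 was again the lowest array of all.

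Ebp, the sterol isomerase, gave 11171, 8215, 11688, 12519 and 11942 in wild-type liver at week 20, 7394, 7829.9, 7662, 9810 and 9521 in transgenic liver and 9782, 11692, 9325, 9773 and 8673 with peretinoin. Ebp at week 48 gave 13592, 12409, 12166 and 12118 in wild-type liver, 9515, 10609, 11486, 12099 and 12308.5 in transgenic liver, 9979, 10250.2, 9632, 12754 and 11838 with peretinoin and 12064, 9895, 12305, 12179 and 9877 in tumours. At week 20 only replicate 2 of wild-type liver came down into the transgenic range. Sc5d, the desaturase that acts on lathosterol, gave 13291, 9399.6, 15605, 13763 and 16584 in wild-type liver at week 20, 7439.8, 8085, 7712, 11540.2 and 12197 in transgenic liver and 11894, 14586, 12208, 17056 and 13238 with peretinoin. Sc5d at week 48 gave 14957.5, 15578, 12255 and 15568 in wild-type liver, 14534, 13314, 15939, 15473 and 18161 in transgenic liver, 9255.5, 11107.5, 14305, 17498 and 10200.2 with peretinoin and 17083.5, 14252, 17897, 15244 and 16473 in tumours. Transgenic liver at week 20 was below transgenic liver at week 48 on every array, and touched the peretinoin range only through its replicate 5. The demethylation enzyme Msmo1 ran from a group mean of 4964 ± 3274 (n = 5, transgenic at week 20) to 10094 ± 2197 (n = 4, wild type at week 48). The C3 ketoreductase Hsd17b7 ran from 1210 ± 414 (n = 5, transgenic at week 20) to 1854 ± 595 (n = 5, peretinoin at week 20). Dhcr7, the last reductase of the pathway, ran from 1614 ± 735 (n = 5, wild type at week 20) to 3273 ± 1210.3 (n = 5, tumours).

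Among the control genes, Srebf2 gave 414, 274, 508, 429 and 292 in wild-type liver at week 20, 438, 286, 509, 476 and 530.5 in transgenic liver and 501, 376, 379.6, 542.5 and 447 with peretinoin. Srebf2 at week 48 gave 611, 392, 585 and 592.5 in wild-type liver, 593, 371, 543, 459 and 529.6 in transgenic liver, 449, 442, 403, 389 and 544 with peretinoin and 484, 333, 461, 574.5 and 589 in tumours. Each group overlapped every other. Insig1 gave 2551, 2159, 2338, 2567 and 2092 in wild-type liver at week 20, 1698, 1137, 1527, 1523 and 1231 in transgenic liver and 2986, 3949, 2732, 2478 and 3622 with peretinoin. Insig1 at week 48 gave 2152, 3435, 2888.5 and 2981 in wild-type liver, 2326, 2046, 2659, 2307 and 2030.4 in transgenic liver, 2986, 2746, 1886, 2746 and 1765 with peretinoin and 2297.5, 2468, 2420.2, 2416 and 2357 in tumours. The 5 transgenic arrays of week 20 lay below every array of the 6 other groups. Insig2 gave 8843, 5422, 4114, 5090 and 9436 in wild-type liver at week 20, 4953, 6718, 4519, 4359 and 4569 in transgenic liver and 7476, 5232, 8151, 2844.5 and 2628 with peretinoin. Insig2 at week 48 gave 12597.5, 15982, 11181 and 10787 in wild-type liver, 9381, 8648, 9882.5, 8167.5 and 12419 in transgenic liver, 8282, 8984, 9923, 8033 and 15616 with peretinoin and 8367, 9439, 11919.9, 7703 and 11931 in tumours. Insig2 split by age, with week 48 above week 20 on every array of wild-type and of transgenic liver.

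Scap gave 2871, 3011, 3629, 2589 and 3051.5 in wild-type liver at week 20, 3074, 3216, 3587, 3634 and 3469.9 in transgenic liver and 3237, 4134, 3417, 3757 and 2882 with peretinoin. Scap at week 48 gave 2584, 2686, 3138 and 2895 in wild-type liver, 3095, 2242, 2655.5, 2355 and 2455 in transgenic liver, 2996, 2996, 2816, 2443 and 1868 with peretinoin and 2295, 2116.5, 2635, 2798 and 2253 in tumours. In transgenic liver the ages met only at replicate 1 of week 48. Mbtps2 gave 688, 552, 594, 539 and 606 in wild-type liver at week 20, 764, 875.5, 766, 754 and 755 in transgenic liver and 728.5, 739, 883, 699.8 and 790.4 with peretinoin. Mbtps2 at week 48 gave 438, 485, 511 and 475 in wild-type liver, 621.5, 621, 529, 586 and 606 in transgenic liver, 706, 640, 619.6, 716 and 782 with peretinoin and 719, 656.5, 689.8, 713.5 and 795 in tumours. These narrow groups were apart between genotypes at each age, between ages in each genotype, and between tumour and transgenic liver. The other protease, Mbtps1, kept group means between 1518 ± 134 (n = 4, wild type at week 48) and 1847 ± 119.7 (n = 5, transgenic at week 20).

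Of the transport genes, Stard4, a soluble sterol carrier, gave 4654, 1953.5, 5318, 2838 and 5281 in wild-type liver at week 20, 1699, 1365, 1835, 4555.5 and 3496 in transgenic liver and 3554, 3763.5, 4910.3, 5211 and 4351.5 with peretinoin. Stard4 at week 48 gave 4471, 3084, 3700.5 and 3363 in wild-type liver, 3266, 2140.2, 3055, 2774 and 2936 in transgenic liver, 2919, 2217, 3260, 2744 and 1921 with peretinoin and 2582, 2089, 3298, 1961.5 and 2211 in tumours. Its week 20 transgenic arrays showed the same high replicates 4 and 5 as the enzymes. Npc1l1, known for sterol uptake in the gut, was dim, with 52.7, 121, 81.9, 65.4 and 34.9 in wild-type liver at week 20, 56.7, 47.8, 141, 88.0 and 88.5 in transgenic liver and 38.0, 80.3, 148, 47.5 and 94.8 with peretinoin. Npc1l1 at week 48 gave 77.6, 18.3, 76.4 and 15.7 in wild-type liver, 76.9, 61.8, 75.4, 71.2 and 60.2 in transgenic liver, 40.8, 53.3, 78.9, 244 and 97.6 with peretinoin and 95.7, 57.1, 118.5, 163 and 80.8 in tumours. Its highest signal, 244.2, was that of a single peretinoin array at week 48.

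**Figure D2:**
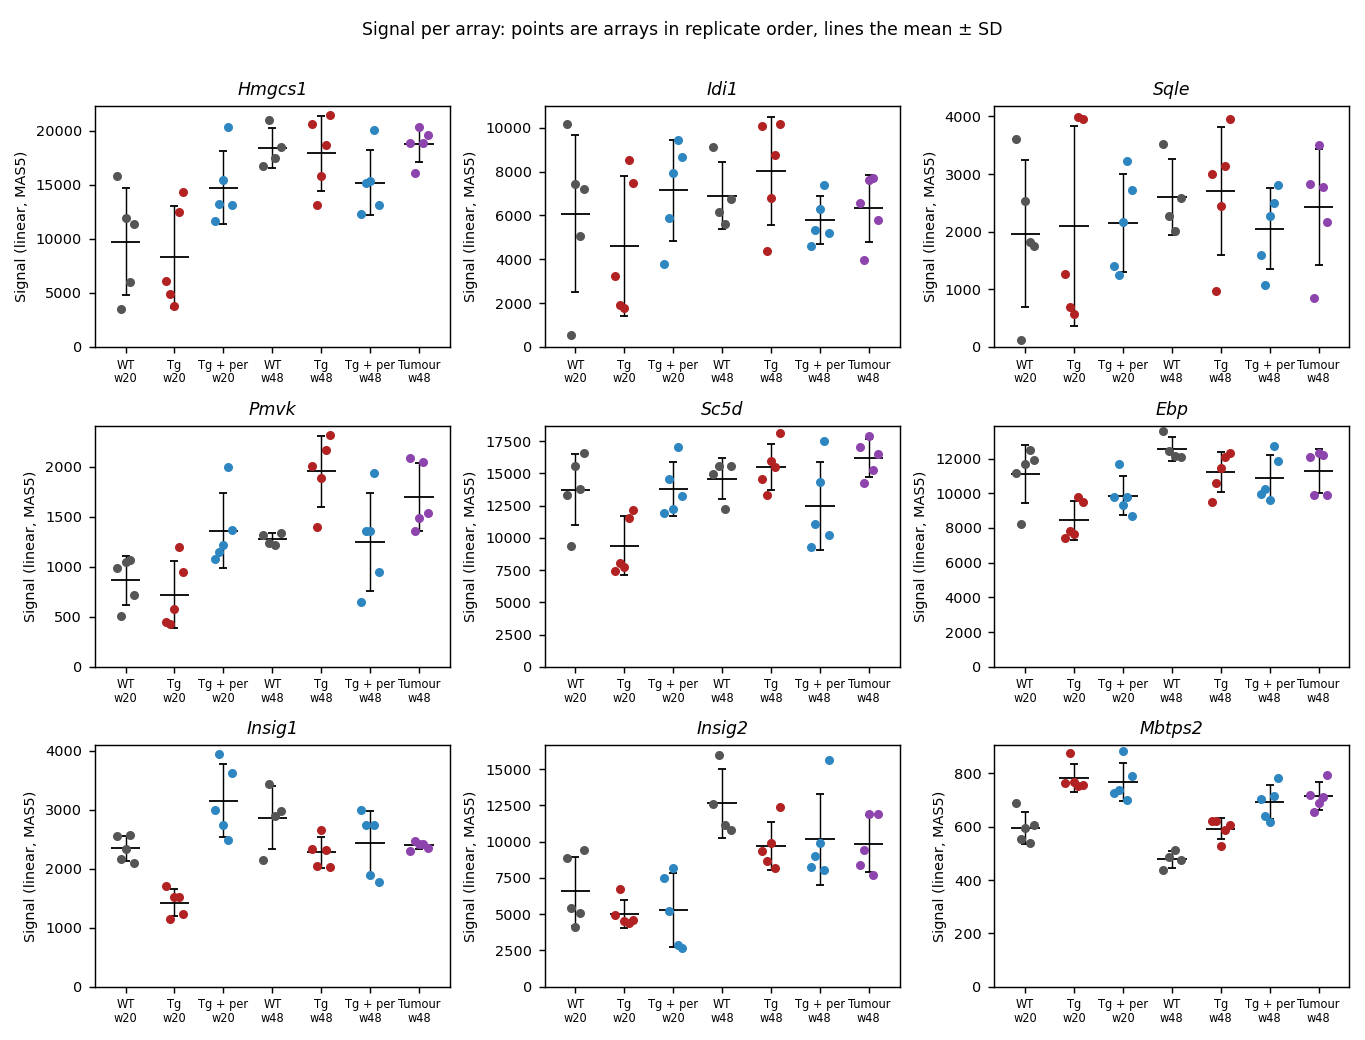
MAS5 signal (linear scale) of 9 of the genes on each array, by group; points are arrays, and the line and bar are the mean and SD. The 5 transgenic arrays of week 20 lie between 1137 and 1698 for Insig1, below all other arrays, and the 4 wild-type arrays of week 48 lie between 10787 and 15982 for Insig2, above all 5 of week 20.

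Changes are differences of mean log2(signal + 16) between groups, with the moderated standard error of limma, and a call needed an adjusted p under 0.05 (Benjamini-Hochberg, over the 13099 genes). Transgenic against wild-type liver shows the genes that differed with the Pdgf-c transgene. At week 20, in the fibrosis phase, transgenic liver had less Insig1, Sc5d and Ebp transcript and more Mbtps2 and Ggps1. Insig1 went from 2341 ± 218 (SD, n = 5) to 1423 ± 232 (n = 5), and fell by 0.72 ± 0.14 on the log2 scale, or 1.65-fold (adjusted p = 0.000337), in groups that did not overlap. Sc5d fell by 0.55 ± 0.16 (adjusted p = 0.0105), from 13728.5 ± 2766 (n = 5) to 9395 ± 2282 (n = 5). Ebp, the isomerase ahead of it, fell by 0.39 ± 0.11 (adjusted p = 0.00932). Mbtps2, the protease that makes the second cut in SREBP2, rose by 0.39 ± 0.09 (adjusted p = 0.00126), again without overlap. Ggps1 of the prenyl branch rose by 0.46 ± 0.14 (adjusted p = 0.0159). In whole liver, a lower signal can come from fewer cells of a type or from less RNA per cell, and the arrays cannot tell these apart.

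Of the 26 members, 2 were called higher and 3 lower, while 15.8% of all genes were called higher and 7.87% lower. In either direction that is 5 of 26 against 23.7%, so the members' share was near the background. Groups did not overlap in 2 members, against 16.1% of all genes. The median change was -0.28 over the 18 enzymes, against 0.06 over all genes, and 3 enzymes had a value above 0 (4 after quantile normalisation, 1 with the second brightest probe set). Single arrays moved both values. The median was -0.62 without replicate 2 of wild-type liver, with 1 enzyme above 0, and it was -0.48 and -0.46 without replicates 4 or 5 of transgenic liver, each left out alone. It was -0.09 and -0.15 without replicates 1 or 3 of wild-type liver and -0.18, -0.11 and -0.10 without replicates 1, 2 or 3 of transgenic liver, and in each of these 5 cases, as without replicate 4 of wild-type liver, 5 to 7 enzymes lay above 0. Quantile normalisation gave a median of -0.16, and leaving out the arrays with another tissue's transcripts -0.46. By role, 0 of the 8 enzymes after lanosterol had a value above 0, while the 3 of the squalene arm ran from -0.09 to 0.22. Srebf2 itself differed by 0.22 ± 0.18 (95% interval -0.13 to 0.58) and Scap by 0.17 ± 0.12, and neither was called. The other probe set of Srebf2 gave 0.72, outside that interval. Stard4 at -0.68 ± 0.26 (adjusted p = 0.0534) and Tm7sf2 at -0.60 ± 0.23 (adjusted p = 0.0561) were just outside the threshold, and were called in 4 and 3 of the 12 settings other than leaving out single arrays.

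Genes around the pathway were counted from 5 further lists. Of 10 genes on the SREBP1 side, which serves fatty acid synthesis, 0 were called higher and 2 lower, Scd1 at -0.50 ± 0.13 and Acss2, which makes acetyl-CoA, at -0.74 ± 0.26. Of 7 other SREBP-responsive genes, 0 were higher and 2 lower, the NADPH source Me1 at -1.26 ± 0.25 and Aacs, which activates acetoacetate for sterol synthesis, at -1.71 ± 0.46. Of 15 genes of sterol export, storage, transport and LXR signalling, 4 were higher and 0 lower. They were Npc2, which moves cholesterol out of lysosomes, at 0.40 ± 0.09, the export pump Abcg1 at 0.54 ± 0.18, the HDL receptor Scarb1 at 0.44 ± 0.16 and Lpcat3 at 0.37 ± 0.12. Among 9 partners of Scap and Insig, 2 were higher and 3 lower, with the ligase gene Rnf145 at 1.04 ± 0.20 and Pgrmc1 at -0.50 ± 0.08. Of 9 genes of the prenyl branch, Pggt1b was higher at 0.41 ± 0.14 and Fnta, a subunit of farnesyltransferase, lower at -0.38 ± 0.11.

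Without replicate 2 of wild-type liver, 9 members were called at week 20, with Idi1 at -0.96, Nsdhl at -0.92, Stard4 at -0.91 and Tm7sf2 at -0.75 added. Over all 13099 genes the count called went from 3102 to 3412 in that setting. The array was singled out for its low signals in the cholesterol genes, so the added calls are no separate result. The Ggps1 call was lost without replicate 4 of wild-type liver, replicate 1 of transgenic liver or replicate 4 of transgenic liver (0.39 to 0.40, adjusted p = 0.0505 to 0.0621), after quantile normalisation (0.26, adjusted p = 0.155), after median centring (0.34, adjusted p = 0.0568), with only the 2 groups in the fit (adjusted p = 0.0539) and with the mean of its probe sets (0.17, adjusted p = 0.26), while its second brightest probe set gave -0.05. Quantile normalisation also ended the calls of Ebp (-0.19, adjusted p = 0.214) and Sc5d (-0.35, adjusted p = 0.12), and Sc5d was lost with the mean of its probe sets (-0.42, adjusted p = 0.216) and the second brightest (-0.50, adjusted p = 0.235). Stellate cell and myofibroblast markers moved with the same comparison, with 5 of 7 called higher and a summed signal in wild-type liver of 4489 to 12426 and in transgenic liver of 31166 to 35242. Of the hepatocyte markers 3 of 7 were lower (190878 to 232825, then 147379 to 199363), and of the male-biased liver genes 6 of 7 were lower (75368 to 114834, then 9694 to 56656). The Actb ratio of 3′ over 5′ signal, a measure of RNA quality, was 1.81 to 2.16 in wild-type liver and 1.62 to 1.74 in transgenic liver, without overlap. The part of these markers and of this ratio in the results was not tested.

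At week 48 the transgene comparison called only Ggps1 and Mbtps2 among the members, both higher in transgenic liver. Ggps1 rose by 0.49 ± 0.15 (adjusted p = 0.0184), from 276 ± 26.9 (n = 4) to 396 ± 53.0 (n = 5). Mbtps2 rose by 0.30 ± 0.09 (adjusted p = 0.0167), from 477 ± 30.4 (n = 4) to 593 ± 38.5 (n = 5), and neither gene's groups overlapped. Pmvk was also apart on every array, at 0.58 ± 0.27 (adjusted p = 0.128), but was not called except with only the 2 groups in the fit (adjusted p = 0.0108). Insig1 differed by -0.32 ± 0.15 (adjusted p = 0.138, 95% interval -0.62 to -0.02) and Sc5d by 0.08 ± 0.17 (adjusted p = 0.768). The largest negative value was that of Tm7sf2, -0.60 ± 0.24 (adjusted p = 0.0814, called in 2 of the 12 settings), and the largest positive one that of the dim Npc1l1, 0.62 ± 0.39 (adjusted p = 0.287).

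The 2 members called higher and 0 called lower compare with 14.2% and 6.58% of all genes (20.8% in either direction), and the 3 members without overlap with 21.4%. The enzymes had a median of 0.11, against 0.04 over all genes, and 11 of 18 lay above 0. Left out alone, replicates 2, 1 and 5 of transgenic liver gave a median of 0.29, 0.07 and 0.04, with 15, 11 and 10 enzymes above 0, and replicates 1 and 3 of wild-type liver gave 0.21 and 0.05. The median was 0.19 after quantile normalisation or median centring and 0.05 with the second brightest probe set. On the SREBP1 side 0 of 10 genes were called, and among the other SREBP-responsive genes 1 of 7, Acsl3, at 1.29 ± 0.24. In the export and transport list 5 of 15 genes were higher, among them Npc2 at 0.75 ± 0.09, Abcg1 at 0.85 ± 0.19 and the paired sterol transporter genes Abcg5 at 1.19 ± 0.23 and Abcg8 at 0.74 ± 0.26. In the same list 3 were lower, with Nr1h3, which encodes LXR alpha, at -0.40 ± 0.12, Lcat at -0.37 ± 0.12 and Osbp at -0.42 ± 0.14. Of the Scap and Insig partners 1 was higher, Rnf145 at 1.13 ± 0.21, and 2 were lower, Pgrmc1 at -0.54 ± 0.09 and the ligase gene Syvn1 at -1.53 ± 0.21. In the prenyl list 0 of 9 were called.

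Leaving out replicate 1 of wild-type liver ended the calls of Ggps1 (0.43, adjusted p = 0.0658) and Mbtps2 (0.26, adjusted p = 0.0652), and leaving out replicate 2 of transgenic liver ended that of Ggps1 (0.42, adjusted p = 0.0556). Quantile normalisation (Ggps1 0.37, adjusted p = 0.0536, Mbtps2 0.21, adjusted p = 0.1), or leaving out the arrays with another tissue's transcripts (0.49 and 0.31, adjusted p = 0.0552 and 0.0566), left 0 members called, and Ggps1 was lost with the mean of its probe sets (0.28, adjusted p = 0.0663) and the second brightest (0.22, adjusted p = 0.212). Stellate markers were called higher in 6 of 7 (summed signal 6475 to 10110.0 without and 23055 to 30252 with the transgene), hepatocyte markers lower in 4 of 7, male-biased genes lower in 5 of 7 and dividing cell markers higher in 2 of 3. Their part in these results was not tested.

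Tumours were set against transgenic liver of the same age to see which genes differed in the tumour itself. Limma, without pairing of samples, called 0 of 26 members, and 2 had an unadjusted p under 0.05, Tm7sf2 and Mbtps2. Tm7sf2, the sterol C14 reductase, was 4212.5 ± 1072 (n = 5) in transgenic liver and 2289.9 ± 504 (n = 5) in tumours, a difference of -0.87 ± 0.23 (adjusted p = 0.225) without overlap. Mbtps2 differed by 0.26 ± 0.09 (adjusted p = 0.35), also without overlap. Srebf2 at -0.04 ± 0.18 and Insig1 at 0.08 ± 0.14 had 95% intervals of -0.39 to 0.31 and -0.20 to 0.36.

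Over all genes 0% were called, with 1075 at an unadjusted p under 0.05, and 1.98% had groups without overlap. The median over the enzymes was -0.12, against 0.01 over all genes, with 4 of 18 above 0. The median turned to 0.03 without replicate 2 of the tumours, with 11 above 0. Without replicates 5, 4 or 2 of transgenic liver it was -0.03, -0.07 and -0.29, with 9, 7 and 2 above 0, and without the arrays with another tissue's transcripts it was -0.07, with 7 above 0. Replicate 2 was the lowest array in 15 of the 18 enzymes among tumours and in 14 among transgenic livers. Whether these 2 arrays share a mouse is not known. None of the 5 further lists had a called gene. The dividing cell markers had a summed signal of 789 to 3010 in tumours and 293 to 860 in transgenic liver, with 0 called.

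**Figure D3:**
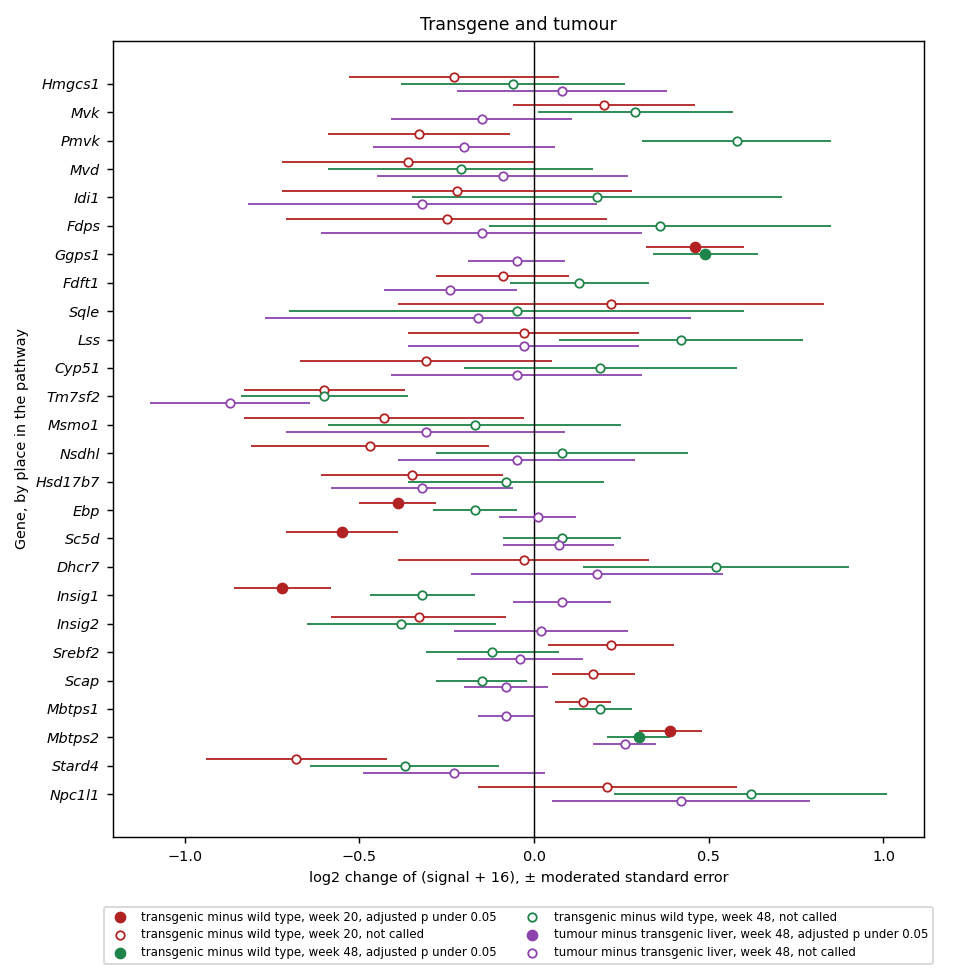
Log2 change with its moderated standard error for each member, in transgenic minus wild-type liver at week 20 and at week 48 and in tumour minus transgenic liver; filled points have an adjusted p under 0.05. Insig1, Sc5d and Ebp are filled below 0 at week 20 alone, Mbtps2 and Ggps1 are filled above 0 at both ages, and no tumour point is filled.

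Peretinoin was compared with the basal diet in transgenic mice of each age. At week 20 Insig1, Pmvk and Sc5d were higher with peretinoin. Insig1 went from 1423 ± 232 (n = 5) to 3153 ± 615 (n = 5) and rose by 1.13 ± 0.14, or 2.19-fold (adjusted p = 6.57e-05), with no overlap. Pmvk rose by 0.99 ± 0.26 (adjusted p = 0.0309), from 719 ± 336 (n = 5) to 1362 ± 374 (n = 5). Sc5d rose by 0.57 ± 0.16 (adjusted p = 0.043), from 9395 ± 2282 (n = 5) to 13796.5 ± 2104 (n = 5). Stard4 at 0.89 ± 0.26 (adjusted p = 0.0526) and Hmgcs1 at 0.99 ± 0.30 (adjusted p = 0.0602) stayed just short of the threshold, and each was called in 3 of the 12 settings. Srebf2 differed by 0.02 ± 0.18 (95% interval -0.33 to 0.37), Scap by 0.03 ± 0.12 and Insig2 by -0.07 ± 0.25, none of them called. On their further probe sets Srebf2 gave -0.31 and Insig2 0.37 and 0.44. The transgenic arrays of this comparison are also those of the transgene comparison at week 20 and of the age comparison in transgenic liver. They enter both differences between ages as well, so the values of all these comparisons are not independent.

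Of 26 members 3 were called higher and 0 lower, where 1.64% of all genes were higher and 1.24% lower (2.89% in either direction). The 378 genes behind that background were 51 without replicate 2 and 879 without replicate 5 of peretinoin liver, the lowest and highest with 1 array of these groups left out. Groups did not overlap in 1 member, against 5.02% of all genes. The 18 enzymes had a median of 0.59 (0.38 without replicate 4 of peretinoin liver), against -0.02 over all genes. All 18 had a value above 0, as they did under quantile normalisation and median centring, while 17 did with the mean of each gene's probe sets and 16 with the second brightest. Their range ran from 0.16 for Tm7sf2 to 0.99 for Hmgcs1 and Pmvk. On the SREBP1 side 2 of 10 genes were higher, Scd1 at 0.67 ± 0.13 and Acss2 at 1.08 ± 0.26, and 0 lower. Of the other SREBP-responsive genes 1 of 7 was higher, the desaturase gene Fads1, at 0.51 ± 0.14. In the export and transport list 0 of 15 were called, and in the prenyl list 0 of 9. Of 9 Scap and Insig partners Vcp, the extraction ATPase of degradation from the endoplasmic reticulum, was higher at 0.67 ± 0.11 and the ligase gene Rnf139 lower at -0.37 ± 0.10.

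The Pmvk and Sc5d calls were lost when any of replicates 1, 2 and 3 of transgenic liver or 1, 2, 3 and 4 of peretinoin liver was left out (Pmvk 0.83 to 1.06, adjusted p = 0.0558 to 0.11; Sc5d 0.49 to 0.62, adjusted p = 0.0641 to 0.124), which left Insig1. Without replicate 4 or 5 of transgenic liver 5 members were called, and also 5 without replicate 2 of wild-type liver, which enters through the shared spread and added Hmgcs1 and Stard4. That wild-type array was singled out for its low enzyme signals, so the calls added without it are no separate result. Median centring (Pmvk 1.0, adjusted p = 0.0507, Sc5d 0.58, adjusted p = 0.0882) and a fit of the 2 groups alone (adjusted p = 0.0746 for both) left only Insig1. Sc5d was called in 5 of the 12 other settings and missed in 7 (adjusted p = 0.0603 to 0.532), and its 2 further probe sets gave -0.13 and 0.45. The Actb ratio of 3′ over 5′ signal, a measure of RNA quality, was 2.66, 3.31, 2.54, 2.38 and 1.70 in replicates 1 to 5 of peretinoin liver. In transgenic liver it was 1.62 to 1.74, a range that only replicate 5 of peretinoin liver reached. Male-biased genes were higher in 2 of 7 (9694 to 56656, then 30025 to 98747). Their part in these results was not tested.

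At week 48 limma called 0 of 26 members with peretinoin, and 7 had an unadjusted p under 0.05. On the chosen probe sets the largest differences were those of Fdps, 13930.5 ± 3215 (n = 5) in transgenic liver and 7676 ± 4332 (n = 5) with peretinoin, at -1.04 ± 0.46 (adjusted p = 0.313), and of Pmvk, at -0.71 ± 0.26 (adjusted p = 0.187). Sc5d differed by -0.34 (adjusted p = 0.326), but its 2 further probe sets gave -1.29 and -1.08. Over the 12 settings other than leaving out single arrays its lowest adjusted p was 0.0559. Insig1 differed by 0.07 ± 0.14 (95% interval -0.21 to 0.35). Over all genes 0.725% were called, 0.153% higher and 0.573% lower (95 genes, 26 to 180 with 1 array left out, lowest without replicate 2 and highest without replicate 4 of peretinoin liver), and groups did not overlap in 0 members, against 2.69% of all genes. The enzymes had a median of -0.34 (-0.53 without replicate 2 of transgenic liver), against -0.02 over all genes. None of the 18 had a value above 0, while 2 did after median centring, 1 without the arrays with another tissue's transcripts, 1 without replicate 1 of transgenic liver and 1 without replicate 2 of peretinoin liver. The 5 further lists held no called gene, with medians of -0.25 on the SREBP1 side and -0.30 for the other SREBP-responsive genes. Clock genes had a summed signal of 5892 to 10837 in transgenic liver and 7333 to 18684 with peretinoin, with 0 of 11 called. The Actb ratio was 1.30 to 1.57 in transgenic liver and 1.42 to 1.94 with peretinoin. The part of both in these values was not tested.

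The peretinoin effect of week 48 minus that of week 20 tests the diet difference between the 2 ages. Insig1, Pmvk and Sc5d were called, all with a smaller or more negative effect at week 48. For Insig1 the difference was -1.07 ± 0.20 (adjusted p = 0.0135), for Pmvk -1.70 ± 0.36 (adjusted p = 0.0286) and for Sc5d -0.92 ± 0.22 (adjusted p = 0.0455). That is 0 members higher and 3 lower, where 0.305% of all genes were higher and 0.374% lower (0.679% in either direction). The 89 genes behind that background were 11 without replicate 3 and 215 without replicate 4 of transgenic liver at week 20, the lowest and highest with 1 array of these groups left out. The median was -0.95 over the 18 enzymes, against -0.01 over all genes, and 0 of 18 lay above 0 (1 with the second brightest probe set). On the SREBP1 side the median was -0.89, with 0 of 10 called, and the other 4 lists had 0 called as well. In the same comparison the male-biased genes had a median of -1.77, the clock genes 0.92 and the skeletal muscle markers -2.91, with 0 called in each set. The Actb ratio ran from 1.70 to 3.31 with peretinoin at week 20 and from 1.42 to 1.94 at week 48. The part of these sets and of the ratio in the results was not tested.

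The Insig1 difference was called without each of the 20 arrays in turn, though with only the 4 groups in the fit its adjusted p was 0.0507 and 0 members were called. Leaving out replicate 1, 2 or 3 of transgenic liver at week 20, replicate 3 or 5 of transgenic liver at week 48, or replicate 5 of peretinoin liver at week 48 ended the Pmvk call (-1.70 to -1.54, adjusted p = 0.0518 to 0.0747) and left 1 member. The Sc5d call was lost in 15 of the 20 (-0.97 to -0.82, adjusted p = 0.0515 to 0.11), all but replicates 4 and 5 of transgenic liver at week 20, replicate 5 of peretinoin liver at week 20 and replicates 3 and 4 of peretinoin liver at week 48. Without the arrays with another tissue's transcripts Pmvk was -1.59 (adjusted p = 0.0505) and Sc5d -0.99 (adjusted p = 0.0534), and Sc5d was missed in 8 of the 12 other settings.

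**Figure D4:**
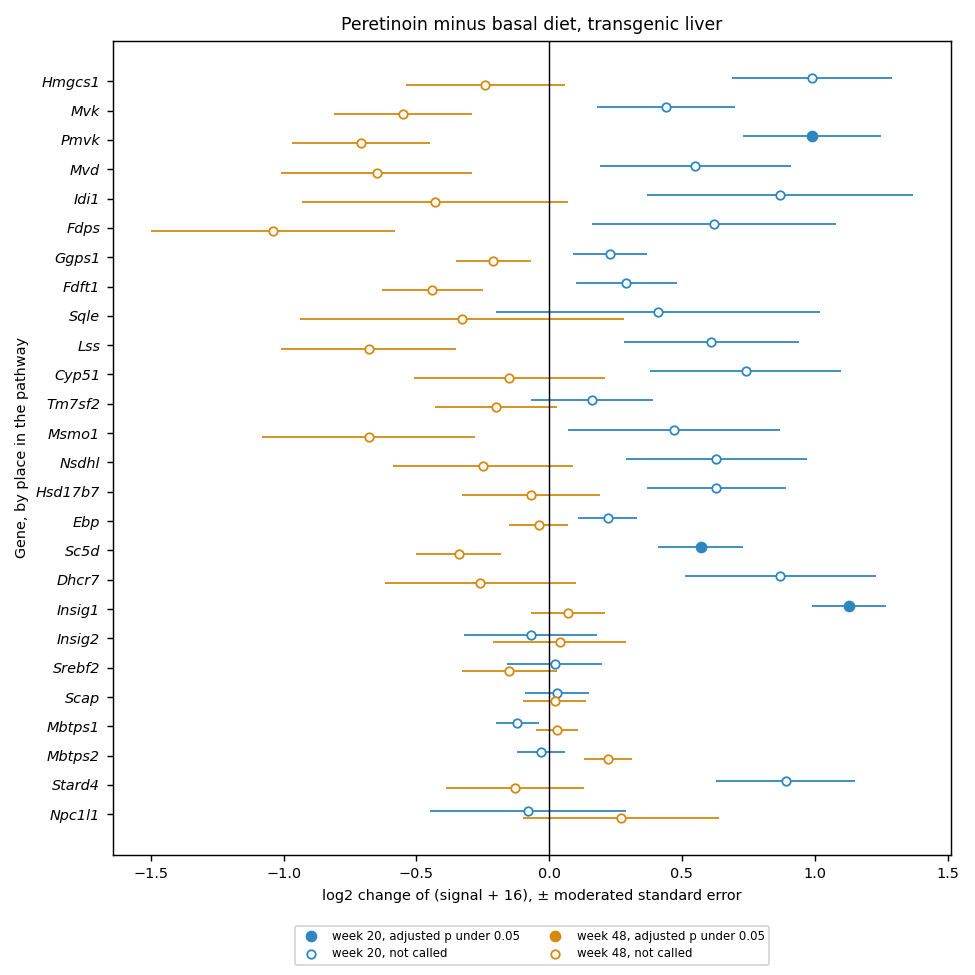
Log2 change with its moderated standard error for each member, in peretinoin minus basal diet in transgenic liver at week 20 and at week 48; filled points have an adjusted p under 0.05. All 18 enzymes lie above 0 at week 20 (median 0.59) and none at week 48 (median -0.34), with Insig1, Pmvk and Sc5d filled at week 20 and no gene filled at week 48.

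Week 48 was set against week 20 within each genotype to give the change with age. In wild-type liver Hmgcs1 and Insig2 were higher at week 48 and Mbtps2 lower, each without overlap. Hmgcs1 rose by 1.10 ± 0.32 (adjusted p = 0.0315), from 9730.4 ± 4938 (n = 5) to 18423 ± 1868 (n = 4). Insig2 rose by 1.0 ± 0.27, or 2.0-fold (adjusted p = 0.0225), from 6581 ± 2394 (n = 5) to 12637 ± 2362 (n = 4). Mbtps2 fell by 0.31 ± 0.09 (adjusted p = 0.0373). Mvk at 0.60 ± 0.28 and Pmvk at 0.61 ± 0.27 were also apart but not called. Insig1 differed by 0.27 ± 0.15 (95% interval -0.02 to 0.57) and Srebf2 by 0.51 ± 0.19 (95% interval 0.13 to 0.88), and neither was called. Srebf2 did pass the threshold with the mean of its probe sets (0.67, adjusted p = 0.0165), the second brightest (0.83, adjusted p = 0.0188) and the replicate block (0.53, adjusted p = 0.025).

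The 2 members called higher and 1 lower compare with 2.41% and 4.47% of all genes (6.88% in either direction, or 901 genes, which were 518 to 581 when replicate 2 of week 20 or 2, 3 or 4 of week 48 was left out), and the 5 members without overlap with 8.84%. The enzymes had a median of 0.47, against -0.02 over all genes, with 17 of 18 above 0 and 16 after median centring. Without replicate 2 of wild-type liver at week 20 the median was 0.05, with 11 of 18 above 0. On the SREBP1 side 0 of 10 genes were called. Of the export and transport list 3 of 15 were lower, Npc2 at -0.63 ± 0.09, Abcg5 at -0.98 ± 0.23 and the lysosomal carrier Stard3 at -0.43 ± 0.11. Syvn1 was higher at 1.29 ± 0.21, and Dhdds, which makes the dolichol chain, was higher at 0.53 ± 0.15.

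Without replicate 2 of wild-type liver at week 20 Hmgcs1 was 0.78 (adjusted p = 0.114) and Insig2 0.95 (adjusted p = 0.054), and 1 member was called. Hmgcs1 also lost its call without replicate 4 of week 20 or any of the 4 arrays of week 48 (0.97 to 1.15, adjusted p = 0.0507 to 0.0858), Insig2 without replicate 3 of week 20 or replicate 2 of week 48 (0.85 and 0.88, adjusted p = 0.0673 and 0.0815), and Mbtps2 without replicates 1, 3 or 5 of week 20 or 1, 2 or 4 of week 48 (-0.32 to -0.26, adjusted p = 0.0604 to 0.112). Leaving out replicate 2 of week 48 left 0 members called, and replicate 1 or 4 of week 48 or replicate 3 of week 20 left 1. A fit of the 2 groups alone ended the calls of Hmgcs1 (adjusted p = 0.109) and Mbtps2 (adjusted p = 0.198), as did leaving out the arrays with another tissue's transcripts (adjusted p = 0.0665 and 0.0959). The replicate block ended that of Mbtps2 (-0.29, adjusted p = 0.0557), and Hmgcs1 was lost with the second brightest probe set (1.09, adjusted p = 0.0539). Clock genes moved with age, with 3 of 11 called higher and 4 lower and a summed signal of 11632 to 24543 at week 20 and 6337 to 10935 at week 48. Dbp, a clock output gene, gave 2298 to 9879 at week 20 and 143 to 1084 at week 48. The Actb ratio of 3′ over 5′ signal was 1.81 to 2.16 at week 20 and 1.39 to 1.71 at week 48. The part of both in these results was not tested.

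In transgenic liver the same step in age called 10 members, 8 of them higher at week 48. Pmvk rose most, by 1.52 ± 0.26, or 2.86-fold (adjusted p = 0.000215), from 719 ± 336 (n = 5) to 1954 ± 354 (n = 5). In the mevalonate arm Fdps rose by 1.48 ± 0.46 (adjusted p = 0.0266) and Hmgcs1 by 1.28 ± 0.30 (adjusted p = 0.00409). Past lanosterol Nsdhl rose by 0.99 ± 0.34 (adjusted p = 0.0456), Sc5d by 0.75 ± 0.16 (adjusted p = 0.00194) and Ebp by 0.41 ± 0.11 (adjusted p = 0.0102). Of the control genes Insig2 rose by 0.95 ± 0.25 (adjusted p = 0.0103) and Insig1 by 0.68 ± 0.14 (adjusted p = 0.00179). Scap fell by 0.41 ± 0.12 (adjusted p = 0.0165) and Mbtps2 by 0.39 ± 0.09 (adjusted p = 0.00254). Groups did not overlap for Pmvk, Sc5d, Insig1, Insig2 and Mbtps2.

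Against the 8 members higher and 2 lower, 5.99% of all genes were higher and 9.76% lower (15.7% in either direction), and against the 5 members without overlap, 14.3%. The 18 enzymes had a median of 0.90, against -0.04 over all genes, and 17 lay above 0 (16 after quantile normalisation, which turned Tm7sf2). Srebf2 differed by 0.16 ± 0.18 (95% interval -0.19 to 0.51) and was not called. On the SREBP1 side 4 of 10 genes were higher and 0 lower, with Acss2 at 1.73 ± 0.26, the fatty acid synthase gene Fasn at 1.46 ± 0.40, Pnpla3 at 1.05 ± 0.27 and the citrate lyase gene Acly at 0.70 ± 0.25. Of the other SREBP-responsive genes 3 of 7 were higher, Rdh11 at 1.80 ± 0.32, Me1 at 1.31 ± 0.25 and Acsl3 at 0.69 ± 0.22. In the export and transport list 0 were higher and 3 lower, Stard3 at -0.47 ± 0.10, Npc2 at -0.29 ± 0.09 and Scarb1 at -0.49 ± 0.16. Of the Scap and Insig partners 2 were higher, Vcp at 0.47 ± 0.11 and Ufd1 at 0.29 ± 0.09, and 2 lower, Rnf139 at -0.39 ± 0.10 and Aup1 at -0.34 ± 0.12. In the prenyl list Dhdds was higher at 0.50 ± 0.14 and Rabggta lower at -0.35 ± 0.11.

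Fdps lost its call without replicates 1, 2 or 3 of week 20 or 4 or 5 of week 48 (1.32 to 1.42, adjusted p = 0.0556 to 0.0807), and Nsdhl without replicates 1, 2 or 3 of week 20 or 1, 3, 4 or 5 of week 48 (0.83 to 1.03, adjusted p = 0.0618 to 0.138). Median centring ended the calls of Scap (-0.29, adjusted p = 0.17) and Mbtps2 (-0.27, adjusted p = 0.0536), the second brightest probe set that of Sc5d (0.61, adjusted p = 0.16), and leaving out the arrays with another tissue's transcripts those of Nsdhl (1.07, adjusted p = 0.0763) and Scap (-0.38, adjusted p = 0.0653). Nsdhl was also lost with no filter on dim probe sets (0.99, adjusted p = 0.0589) and with no intensity trend in the fit (0.99, adjusted p = 0.055). Without replicate 2 of wild-type liver at week 20, which enters through the shared spread, 17 members were called, adding Mvk, Mvd, Idi1, Lss, Cyp51, Msmo1 and Dhcr7. That array was singled out for its low enzyme signals, and leaving it out can narrow the spread of these same genes. The added calls are therefore no separate result, and the count over all genes in that setting is not given. Clock genes again moved with age, with 3 of 11 called higher and 7 lower and a summed signal of 17450 to 21703 at week 20 and 5892 to 10837 at week 48. The Actb ratio was 1.62 to 1.74 at week 20 and 1.30 to 1.57 at week 48. The part of both in these results was not tested.

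The transgene effect of week 48 minus that of week 20 asks whether the transgenic difference changed with age. Limma called 0 of 26 members, with 2 at an unadjusted p under 0.05, Pmvk at 0.91 ± 0.37 (adjusted p = 0.29) and Sc5d at 0.64 ± 0.23 (adjusted p = 0.225). Insig1 differed by 0.40 ± 0.21 (95% interval 0.00 to 0.81). Over all genes 0.275% were called (36 genes, 12 without replicate 2 of transgenic liver at week 20 and 66 without replicate 2 of wild-type liver at week 20). The median was 0.27 over the 18 enzymes, against -0.02 over all genes, and 17 of 18 lay above 0. After median centring these medians were 0.47 and 0.19. Without replicate 2 of wild-type liver at week 20 the enzymes had a median of 0.62, and 0 members were called. Without replicate 1 of that group it was 0.11. Of the transgenic arrays, replicates 2 and 3 of week 20 gave 0.17 and 0.16 when left out alone, replicates 4 and 5 of week 20 gave 0.47 each, and replicate 2 of week 48 gave 0.42. The number of enzymes above 0 was lowest, 13, without replicate 2 of transgenic liver at week 20. Leaving out the arrays with another tissue's transcripts gave a median of 0.44. Of the further lists only the Scap and Insig partners held a called gene, Syvn1 at -1.25 ± 0.29 (adjusted p = 0.0492).

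**Figure D5:**
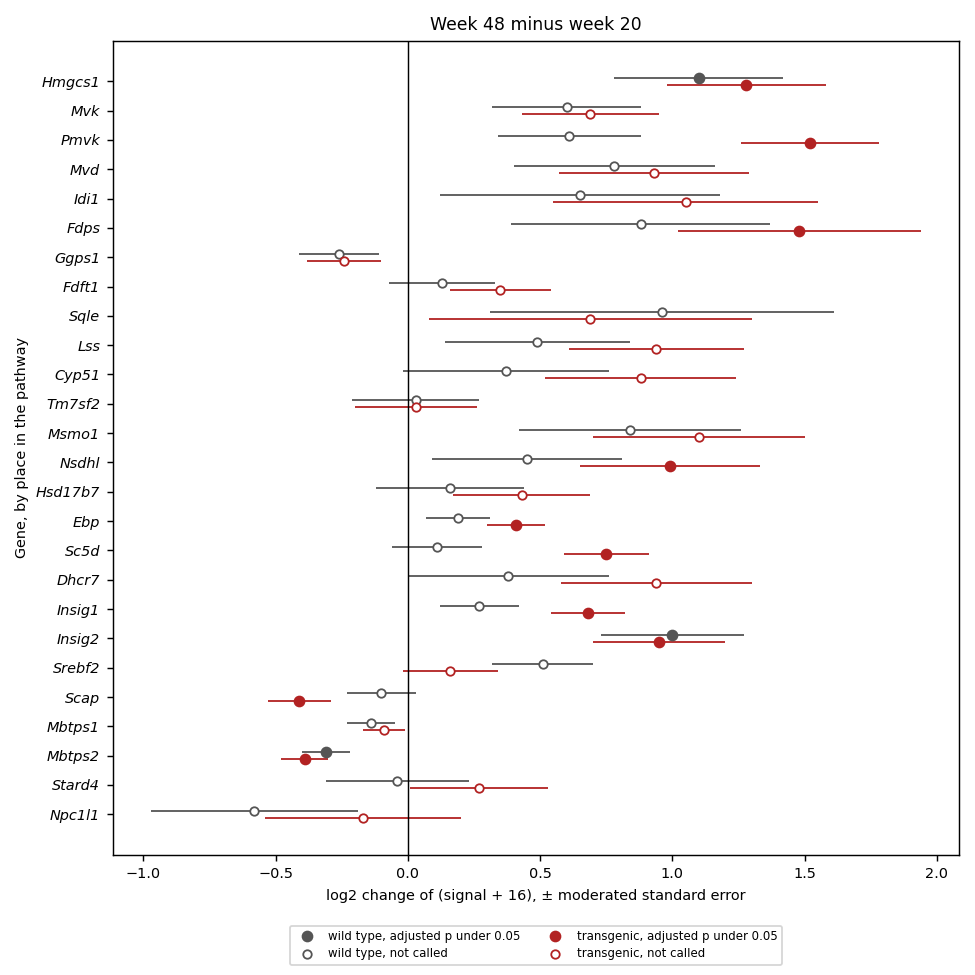
Log2 change with its moderated standard error for each member, in week 48 minus week 20 in wild-type and in transgenic liver on the basal diet; filled points have an adjusted p under 0.05. Hmgcs1 and Insig2 are filled above 0 and Mbtps2 below 0 in both genotypes, and Pmvk, Fdps, Nsdhl, Ebp, Sc5d, Insig1 and Scap are filled in transgenic liver alone.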

How the data were processed

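RNA of 34 samples was measured on arrays of 45101 probe sets, 64 of them controls. The deposited values are MAS5 signal intensities on a linear scale, per the submitters' processing notes (no version given), with a 2% trimmed mean made equal across arrays. Background and normalisation details are not given in the sources used here. Signals were taken as log2(signal + 16), the 60% of probe sets with the highest mean signal were kept, and the brightest probe set of 1 symbol stood for a gene. A model of 7 group means was fitted in R 4.3.3 by lmFit and eBayes (trend) of limma 3.58.1, tests were two-sided, and p-values were adjusted by Benjamini-Hochberg within each of 9 comparisons. Symbols of all 26 members were matched by Entrez ID to RefSeq, and promoters came from its table. The members and lists were chosen with earlier results of these data known. Single-array values were given for Srebf2, Insig1, Insig2, Hmgcs1, Sqle, Cyp51 and Idi1, for each member called in any comparison, and for the 2 largest changes in the transgene, tumour and peretinoin comparisons, and other members by group means. Alternatives were another offset, filter, scaling, probe set rule, fit and block, and leaving out arrays. No array was duplicated: the highest correlation between 2 arrays was 0.977, and that pair shared 0.293% of signals. The scripts were tested on simulated arrays. The numbers were to be used to pair samples only if the deviations of every same-numbered pair correlated above 0.1, which no comparison met. Tumour and transgenic liver came nearest, at 0.08, 0.29, 0.16, 0.13 and 0.27 for replicates 1 to 5. This rule cannot exclude shared mice there, and no test of those pairs alone was run.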

Additional observations from a re-analysis of the deposited data

Results flagged for a closer look

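Dixon's criterion was applied to the log2 signals, with the same offset as in the tests. An array was picked out where its gap to the nearest of the others was too large a share of the range of its group. The signals below are printed on the linear scale, on which the criterion was not applied. It picked out an array in 17 of the 182 sets of a gene and a group, where chance gives about 1 in 20. Replicate 2 of wild-type liver at week 20 accounts for 8 of the 17, as the lowest signal each time. The sets are therefore not independent, and the share expected by chance is only a rough guide. Its signals, beside the next lowest of the group, were 149.6 and 379.2 for the kinase gene Mvk, 77.9 and 333.2 for Mvd, 532.3 and 5070.7 for Idi1, and 1210.3 and 6611.7 for Fdps. They were 115.6 and 1753.5 for Sqle, 1562.8 and 6263.7 for Msmo1, 874.3 and 3215.8 for Nsdhl, and 8215.2 and 11171 for Ebp. Its Srebf2 signal, 273.7, was also the lowest of the group, beside 291.6, while its Insig1 signal, 2159, and its Insig2 signal, 5422, were inside the range of the other 4.

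Tumours had 3 such sets of a gene and a group. Replicate 4 was low in Ggps1 (359.2, next 383.4) and Mbtps1 (1383.9, next 1647.8), and replicate 2 in Tm7sf2 (1454.9, next 2342.8). Wild-type liver at week 48 had 4 such sets, with replicate 4 low in Tm7sf2 (5287.4, next 6461.6), replicate 3 in Sc5d (12254.8, next 14958) and replicate 2 in Dhcr7 (1612.9, next 1950.3) and Srebf2 (392.1, next 584.9). In transgenic liver, replicate 2 of week 48 was low in Lss (944.8, next 1828.8). Replicate 2 of week 20 was the single high array, with 875.5 for Mbtps2 beside 766.4.

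The peretinoin effect differed between the ages, by limma's test of the difference itself, in Insig1 (-1.07, adjusted p = 0.0135), Pmvk (-1.70, adjusted p = 0.0286) and Sc5d (-0.92, adjusted p = 0.0455), each as week 48 minus week 20.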

How the results depend on the processing

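Of the members called, Insig1 and Mbtps2 (transgene, week 20), Insig1 (peretinoin, week 20), Insig2 (age, wild type) and Hmgcs1, Pmvk, Fdps, Ebp, Insig1 and Insig2 (age, transgenic) passed the threshold in the same direction in all 12 settings other than leaving out single arrays. The members called were 5 with the transgene at week 20 and 2 after quantile normalisation. At week 48 they were 2, but 0 after quantile normalisation, 1 with the mean of probe sets, 1 with the second brightest, 4 with only the groups compared and 0 without the arrays with another tissue's transcripts. With peretinoin at week 20 they were 3, but 5 with the upper 40% of probe sets, 1 after median centring and 1 with only the groups compared. With age in wild type they were 3, but 1 with only the groups compared and 1 without the other-tissue arrays. With age in transgenic liver they were 10, and 16 with the replicate block. For the peretinoin difference between ages they were 3, but 0 with only the groups compared and 1 without the other-tissue arrays. Leaving out 1 array of the groups compared gave 4 to 9 (transgene, week 20), 1 to 2 (week 48), 1 to 5 (peretinoin, week 20), 0 to 2 (age, wild type), 8 to 15 (age, transgenic, and 17 without replicate 2 of wild-type liver at week 20, an array of another group), 1 to 4 (peretinoin difference), and 0 in the tumour, week 48 peretinoin and transgene difference comparisons. With the second brightest probe set Ggps1 turned to -0.05 (transgene, week 20) and Hsd17b7 to -0.11 (peretinoin, week 20), and the cause was not tested. Median centring shifted the all-gene median from 0.06 to -0.07 (transgene, week 20), from -0.04 to 0.08 (age, transgenic) and from -0.02 to 0.19 (transgene difference). Counts over all genes went from 378 to between 163 and 658 across the other settings (peretinoin, week 20), from 95 to as few as 4 (week 48), from 89 to between 27 and 136 (peretinoin difference), from 36 to between 15 and 60 (transgene difference) and from 901 to 302 with only the groups compared or 518 without replicate 4 of week 48 (age, wild type). With 1 array left out they ranged from 51 to 879, 26 to 180, 11 to 215 and 12 to 66 in the first 4 of these. For the transgene at week 20 the all-gene count was 3102, and 2785 after quantile normalisation. At week 48 it was 2720, with 2725 after quantile normalisation, 2861 with only the groups compared and 2300 without the other-tissue arrays. For age in transgenic liver it was 2063, and 2245 with the replicate block. The replicate numbers share no stated mouse or batch, and with them as a block 7, 3, 4 and 3 members were called for the transgene at week 20 and 48, peretinoin at week 20 and age in wild type, where the block dropped Mbtps2 and added Srebf2. The number of arrays limits what could be called.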
